A study of Mus musculus with 8 samples.

Results

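The 10 genes described here mark the alveolar type 1 cell in mouse lung: Ager, Pdpn, Gprc5a, Aqp5, Clic5, Cav1, Emp2, Akap5, Rtkn2 and Hopx. They were listed by name, all 10 were found among the 19937 genes that had a probe with exactly 1 gene symbol, and each had a single such probe. All 10 were bright enough to test, as were 14953 genes in all. The arrays measured total RNA of whole lung from mice given mepenzolate, a muscarinic receptor antagonist, or vehicle, and the study asked how the drug lowers inflammation and oxidative stress in the lung. There were 4 groups of 2 arrays each: mepenzolate at 25 h after dosing, vehicle at 25 h, mepenzolate at 7 h and vehicle at 7 h. Mepenzolate was given in PBS into the trachea of mice anaesthetised with chloral hydrate (500 mg/kg). The same chloral hydrate dose is stated for the vehicle groups. The labels state no strain, sex, age or drug dose, no composition of the vehicle and no hour of the day, and they name no lung injury in any of these groups. Whether both arrays of a group stem from different mice is not stated, and p-values here therefore reflect only array-to-array spread, which may be technical.

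Type 1 cells are the very flat epithelial cells that cover most of the alveolar surface and through which gas is exchanged. They share a basement membrane with the capillary endothelium, they carry water channels, ion transporters and many caveolae, and they arise from type 2 cells during repair. Their maturation depends on the transcription factor NKX2-1 and on YAP and TAZ, the effectors of the Hippo pathway. In RNA of a whole lung, fewer cells of a type and less RNA per cell cannot be told apart. Several of the 10 genes are also active elsewhere: Cav1 in endothelium and fat, Pdpn in lymphatic endothelium and mesothelium, and Hopx in heart.

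Other type 1 markers were present on the same arrays. Of 30 further type 1 genes 29 were found, and all 29 were bright enough to test, among them the tight junction gene Cldn18 (mean log2 level 12.36 over the 8 arrays) and Vegfa (11.32). Being bright enough does not set type 1 genes apart in whole lung, since all 14 vascular endothelial, all 10 ciliated and all 8 cardiac markers were so too. The 10 genes themselves had mean levels of 10.06 to 12.67, against a lower limit of 5.93 for testing. All values are log2 levels, so a difference of 1 is a doubling of the signal, and probes of different genes are not set against each other. The second mepenzolate array at 7 h stood apart from the rest. Its 3 tested liver markers averaged 1.22 above their 8-array means, with Alb, the albumin gene, at 8.93 on that array against 5.94 to 6.39 on the other 7, while its ciliated and club cell markers averaged 0.43 and 0.41 below theirs. On the same array the 10 type 1 genes averaged 0.00 but spread most widely of the 8 arrays around their own means (SD 0.152), from -0.39 for Pdpn to 0.18 for Aqp5. Over the 8 arrays their average ran from -0.06 to 0.07.

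**Figure D1:**
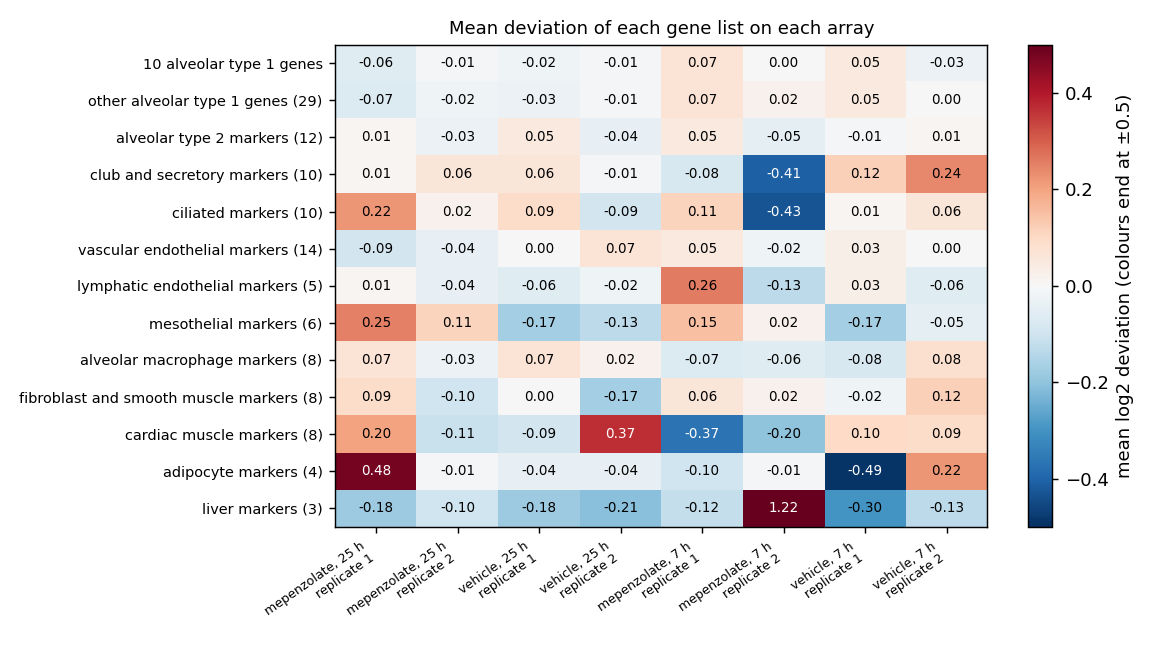
Mean log2 deviation of each gene list from its own 8-array mean (rows, number of genes tested in brackets) on each array (columns). The top row, the 10 type 1 genes, stays between -0.06 and 0.07, while the liver row reaches 1.22 and the ciliated row -0.43 on the second mepenzolate array at 7 h.

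The surface receptor group held Ager, Pdpn and Gprc5a. Ager encodes RAGE, a receptor of the immunoglobulin superfamily that binds HMGB1 and S100 proteins and sits on the basal face of type 1 cells. Its level was 12.30 and 12.42 in mepenzolate lungs and 12.42 and 12.49 in vehicle lungs at 25 h. At 7 h it was 12.45 and 12.47 in mepenzolate lungs and 12.40 and 12.44 in vehicle lungs. The 8 values spanned 0.20, with the lowest on the first mepenzolate array at 25 h. At 25 h the difference between mepenzolate and vehicle was -0.10 ± 0.08 (moderated standard error, 95% interval -0.28 to 0.08) and at 7 h 0.04 ± 0.08 (-0.14 to 0.22). The limma adjusted p was 0.979 at 25 h and 1 at 7 h, and both intervals included 0. Mepenzolate and vehicle arrays did not overlap at 25 h, by a margin that vanishes at this rounding, nor at 7 h. Of all genes, 36.6% did not overlap at 25 h and 23.7% at 7 h.

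Pdpn encodes podoplanin, the mucin-like glycoprotein also known as T1-alpha, and it varied most between replicates. Its level was 11.25 and 11.03 in mepenzolate lungs and 11.24 and 11.31 in vehicle lungs at 25 h. At 7 h it was 11.48 and 10.80 in mepenzolate lungs and 11.48 and 10.97 in vehicle lungs. Both 7 h groups thus held a high and a low array, and the low array was the second of its group each time. The SD between replicates was 0.31, larger than that of 98.2% of genes tested, and the median over all genes tested was 0.0997. The difference from vehicle in mepenzolate lungs at 25 h was -0.14 ± 0.23 (95% interval -0.66 to 0.39), and at 7 h -0.08 ± 0.23 (-0.61 to 0.44). Leaving out an array at 7 h moved that value to 0.252 (second mepenzolate) or -0.419 (first mepenzolate), and it was 0.173 without the first vehicle array and -0.339 without the second.

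Lymphatic and mesothelial genes were set beside Pdpn because those cells express it too. Lyve1, a hyaluronan receptor of lymphatic endothelium, stood at 12.04 and 11.02 in mepenzolate lungs and at 11.91 and 11.11 in vehicle lungs at 7 h, which is the same order of arrays as for Pdpn. At 25 h it stood at 11.54 and 11.78 in mepenzolate lungs and 11.67 and 11.80 in vehicle lungs, where the lower Pdpn array of the mepenzolate pair had the higher Lyve1. Prox1, the transcription factor that defines lymphatic endothelium, did not keep the Pdpn order, with 6.43 and 6.15 in mepenzolate lungs and 6.23 and 6.38 in vehicle lungs at 7 h. Its mean level of 6.27 was near the lower limit of 5.93 for testing. The lymphatic marker Flt4 kept the order at 7 h, with 9.01 and 8.88 in mepenzolate lungs and 9.12 and 8.99 in vehicle lungs. In vehicle lungs at 7 h Mmrn1 (7.86 and 7.92) and Reln (7.49 and 7.74) did not. The 5 tested lymphatic markers averaged between -0.13 and 0.26 around their own means over the 8 arrays, and the 6 tested mesothelial markers between -0.17 and 0.25. Among the further type 1 genes, Itgb6 kept the Pdpn order in each group and Krt19 did not. At 7 h Itgb6 stood at 10.19 and 9.78 in mepenzolate lungs and 10.15 and 9.80 in vehicle lungs. Krt19 stood at 9.94 and 10.18 in vehicle lungs at 7 h. By Pearson's r the genes most like Pdpn were Arhgap25 (0.972), Heatr6 (0.97), Thumpd3 (0.967), Efcab7 (0.965) and Mrps15 (0.963). None of them was in the lymphatic, mesothelial or type 1 lists. The part of any of these cells in the Pdpn values was not tested.

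**Figure D2:**
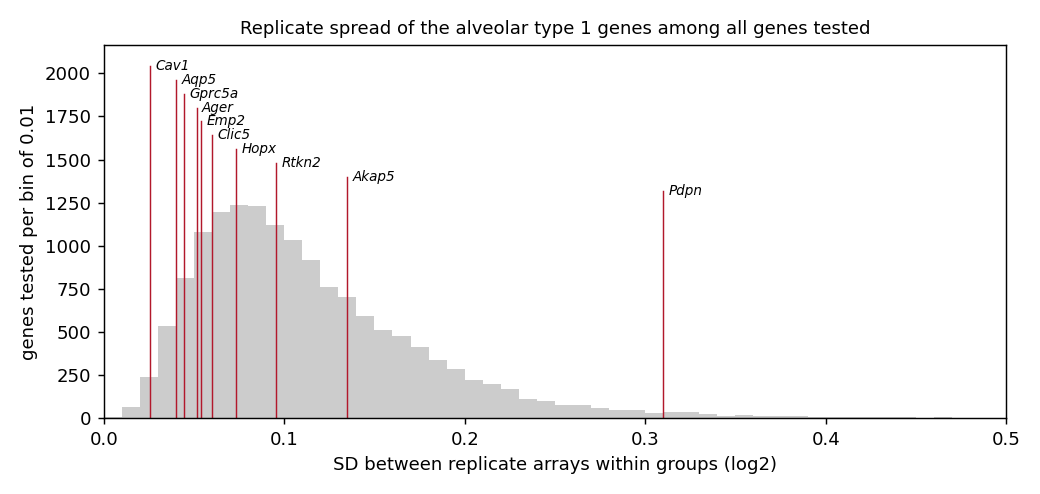
Histogram of the SD between replicate arrays within groups (log2, x axis) for the 14953 genes tested (number per bin of 0.01, y axis), with a vertical line for each of the 10 type 1 genes. Pdpn lies at 0.31, to the right of 98.2% of genes, and Cav1 at 0.0258, to the right of 1.14%.

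Gprc5a encodes an orphan G protein-coupled receptor first described as induced by retinoic acid. Its level was 11.58 and 11.54 in mepenzolate lungs and 11.61 and 11.53 in vehicle lungs at 25 h, and 11.76 and 11.66 in mepenzolate lungs and 11.72 and 11.74 in vehicle lungs at 7 h. All 4 arrays at 25 h lay below all 4 arrays at 7 h. Treatment groups overlapped at both times, and the difference from vehicle in mepenzolate lungs at 25 h was -0.01 ± 0.08, and at 7 h -0.02 ± 0.08.

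The channel group held Aqp5 and Clic5. Aqp5 encodes aquaporin 5, the water channel of the apical membrane of type 1 cells. Its level was 10.55 and 10.51 in mepenzolate lungs and 10.72 and 10.64 in vehicle lungs at 25 h. At 7 h it was 10.84 and 10.91 in mepenzolate lungs and 10.84 and 10.82 in vehicle lungs. The 4 arrays at 25 h were lower than the 4 at 7 h, and at 25 h both mepenzolate arrays were lower than both vehicle arrays. The difference from vehicle in mepenzolate lungs at 25 h was -0.14 ± 0.08 (95% interval -0.32 to 0.03, unadjusted p = 0.0921, limma adjusted p = 0.979), and at 7 h 0.05 ± 0.08. Replicates of Aqp5 were close, with an SD of 0.04, below that of all but 5.63% of genes tested.

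Clic5 encodes a member of the chloride intracellular channel family that links membrane to actin. Its level was 11.95 and 11.95 in mepenzolate lungs and 11.98 and 11.99 in vehicle lungs at 25 h, and 11.98 and 12.08 in mepenzolate lungs and 12.01 and 11.87 in vehicle lungs at 7 h. The difference from vehicle in mepenzolate lungs at 25 h was -0.03 ± 0.08, and at 7 h 0.09 ± 0.08 (95% interval -0.10 to 0.28). The groups overlapped at 7 h and lay next to each other without overlap at 25 h.

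Membrane coats and scaffolds made up the third group. Cav1 encodes caveolin 1, the coat protein of caveolae, and had the closest replicates of the 10 genes (SD 0.0258). Its level was 12.24 and 12.27 in mepenzolate lungs and 12.18 and 12.24 in vehicle lungs at 25 h, and 12.31 and 12.32 in mepenzolate lungs and 12.22 and 12.19 in vehicle lungs at 7 h. Every mepenzolate array was above every vehicle array, by a margin that vanishes at this rounding at 25 h. Averaged over both times mepenzolate minus vehicle was 0.08 ± 0.05 (95% interval -0.04 to 0.19, unadjusted p = 0.174, limma adjusted p = 0.999), a fold of 1.05. Moderated errors borrow spread from all genes, which is why the interval is wider than the replicates of Cav1 alone would give.

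Emp2 encodes a tetraspan membrane protein of the PMP22 family. Its level was 12.61 and 12.58 in mepenzolate lungs and 12.77 and 12.70 in vehicle lungs at 25 h, without overlap, and 12.63 and 12.71 in mepenzolate lungs and 12.73 and 12.63 in vehicle lungs at 7 h, where the groups overlapped. The difference from vehicle in mepenzolate lungs at 25 h was -0.14 ± 0.08 (95% interval -0.33 to 0.04, unadjusted p = 0.115, limma adjusted p = 0.979), and at 7 h -0.01 ± 0.08.

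Akap5 encodes an anchoring protein that holds protein kinase A and calcineurin at the membrane. Its level was 10.83 and 11.19 in mepenzolate lungs and 11.04 and 11.05 in vehicle lungs at 25 h, and 11.10 and 11.01 in mepenzolate lungs and 11.07 and 11.01 in vehicle lungs at 7 h. The mepenzolate pair at 25 h held both the lowest and the highest of the 8 values. The 25 h difference of -0.04 ± 0.12 accordingly became 0.144 without the first mepenzolate array and -0.222 without the second.

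Rtkn2 encodes rhotekin 2 and had the largest difference between treatments among the 10 genes. Its level was 10.13 and 10.26 in mepenzolate lungs and 9.89 and 9.99 in vehicle lungs at 25 h, and 10.21 and 10.01 in mepenzolate lungs and 10.03 and 9.97 in vehicle lungs at 7 h. At 25 h both mepenzolate arrays lay above both vehicle arrays, and at 7 h the second mepenzolate array fell between the vehicle arrays. Mepenzolate minus vehicle was 0.25 ± 0.10 at 25 h (95% interval 0.03 to 0.48), a fold of 1.19, and 0.11 ± 0.10 at 7 h (-0.11 to 0.33). The unadjusted p was 0.0305 at 25 h, the 345th smallest of the 14953, and the limma adjusted p was 0.979. Averaged over both times the difference was 0.18 ± 0.07 with unadjusted p = 0.0291 and limma adjusted p = 0.999, and it lay between 0.131 and 0.233 when each array was left out in turn. The 7 h difference rested on the first mepenzolate array at 7 h: it was 0.00804 without that array and 0.211 without the second.

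Hopx, the transcription regulator of the list, encodes a homeodomain-only protein that does not bind DNA itself. Its level was 10.27 and 10.48 in mepenzolate lungs and 10.30 and 10.32 in vehicle lungs at 25 h, and 10.29 and 10.34 in mepenzolate lungs and 10.36 and 10.35 in vehicle lungs at 7 h. As with Akap5, the mepenzolate pair at 25 h held the lowest and the highest array. Mepenzolate minus vehicle was 0.06 ± 0.09 at 25 h, 0.164 without the first mepenzolate array and -0.0388 without the second, and it was -0.04 ± 0.09 at 7 h.

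**Figure D3:**
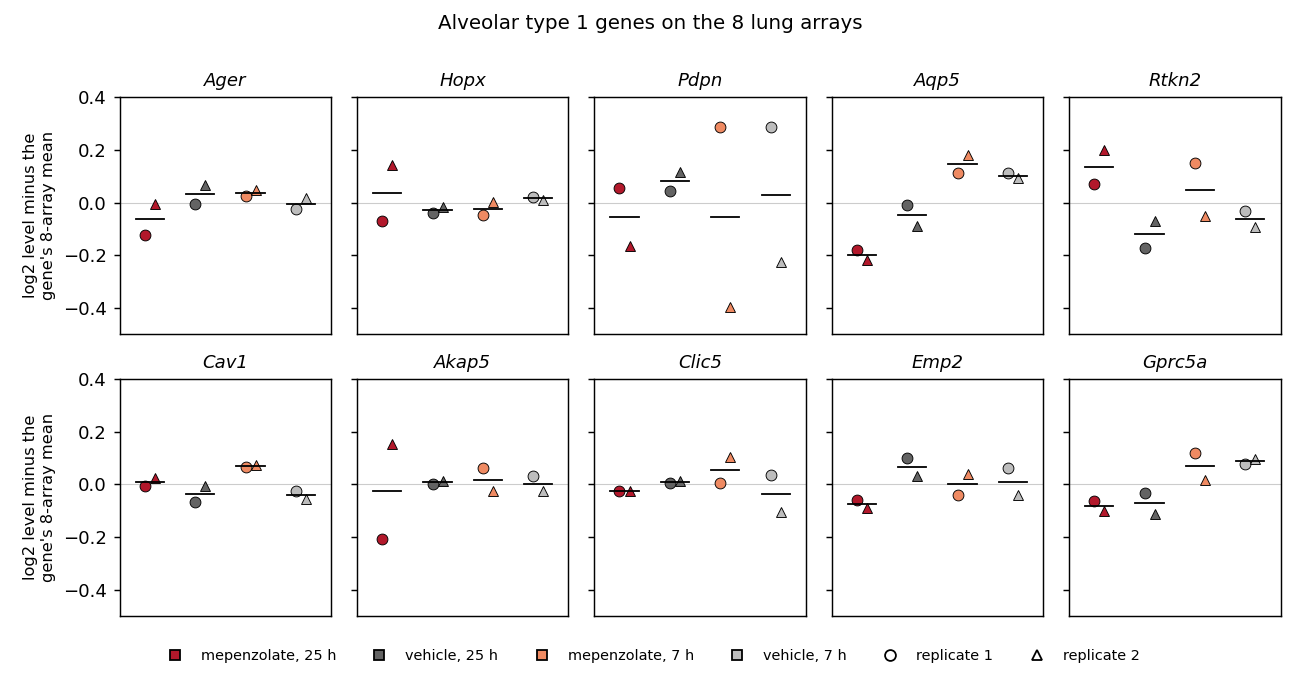
Log2 level of each of the 10 type 1 genes minus its own 8-array mean (y axis) in the 4 groups (colours, bars at group means, circles for replicate 1 and triangles for replicate 2). Aqp5 and Gprc5a are lower on all 4 arrays at 25 h than on all 4 at 7 h, Rtkn2 is higher in mepenzolate lungs at 25 h, and Pdpn differs by 0.67 and 0.51 between the replicates of the 7 h groups.

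The comparison of mepenzolate with vehicle at 25 h asked what the drug left behind a day after dosing, the time at which the study looked at gene sets. Of the 10 type 1 genes 3 were higher and 7 lower in mepenzolate lungs, with differences from -0.14 to 0.25 and a median of -0.0369, while the median over all genes tested was -0.023 and 58.7% of them were lower. By limma 0 of the 10 passed an adjusted p of 0.05, where 0% of all genes passed, and 1 (Rtkn2) had an unadjusted p under 0.05, where 4.01% of all genes did. The groups did not overlap for 6 of the 10, against 36.6% of all genes: Rtkn2 and Cav1 were higher, as 14.2% of all genes were without overlap, and Ager, Aqp5, Clic5 and Emp2 lower, as 22.4% were. Apart from Pdpn, the 95% intervals reached at most 0.48 from no difference.

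At 7 h the comparison asked for the earlier effect of the drug. Of the 10 genes 6 were higher and 4 lower in mepenzolate lungs, from -0.08 for Pdpn to 0.11 for Rtkn2 and Cav1, with a median of 0.0285 against -0.0133 over all genes tested, of which 56.4% were lower. That median was 0.0519 without the first vehicle array at 7 h and 0.00741 without the second. None had an unadjusted p under 0.05 (0 of 10, where 2.39% of all genes did), and limma passed 0 of 10, where it passed 0% of all genes. Groups did not overlap for 4 of the 10, against 23.7% of all genes: Ager, Aqp5 and Cav1 were higher (8.26% of all genes) and Hopx lower (15.5%). Averaged over both times limma again passed 0 of 10 and 0% of all genes, 1 of the 10 (Rtkn2) had an unadjusted p under 0.05 against 3.77% of all genes, and Cav1 alone among the 10 had no overlap, against 2.41% of all genes.

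The change of the drug's effect between the times was tested as an interaction. Limma passed 0 of the 10, where it passed 0% of all genes, and 0 had an unadjusted p under 0.05, where 2.68% of all genes did. The largest was that of Aqp5 at -0.19 ± 0.11 (95% interval -0.44 to 0.05, unadjusted p = 0.111, limma adjusted p = 1). For Rtkn2 it was 0.14 ± 0.14 and for Ager -0.14 ± 0.11. These comparisons share arrays and are not independent of each other.

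**Figure D4:**
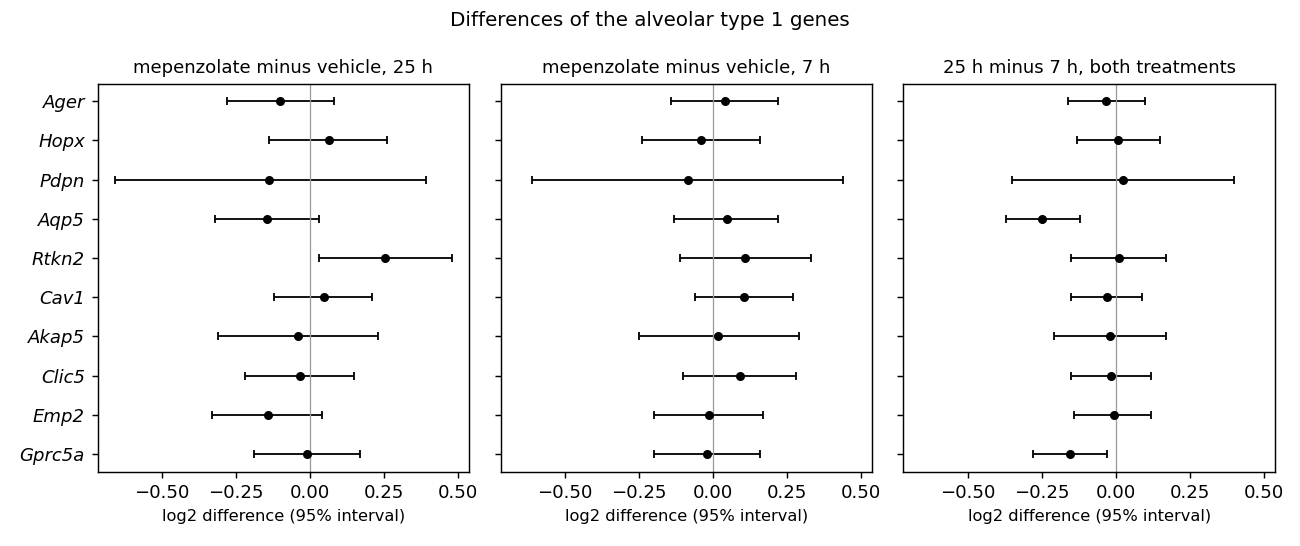
Log2 differences of the 10 type 1 genes with 95% moderated intervals (x axis) for mepenzolate minus vehicle at 25 h, mepenzolate minus vehicle at 7 h and 25 h minus 7 h over both treatments. The Rtkn2 interval at 25 h (0.03 to 0.48) and, over time, those of Aqp5 (-0.37 to -0.12) and Gprc5a (-0.28 to -0.03) leave out 0 before adjustment for the number of genes.

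Lungs taken at 25 h were compared with those taken at 7 h over both treatments, 4 arrays against 4. Aqp5 averaged 10.60 at 25 h and 10.85 at 7 h, a difference of -0.25 ± 0.05 (95% interval -0.37 to -0.12) or a fold of 0.842. Gprc5a averaged 11.57 at 25 h and 11.72 at 7 h, a difference of -0.15 ± 0.05 (-0.28 to -0.03). Their unadjusted p-values were 0.00164 and 0.0222 and their limma adjusted p-values 0.144 and 0.419, so neither passed. With an intensity trend and robust estimation of the spread, the Aqp5 adjusted p was 0.0377. Under the other settings that kept all 8 arrays it lay between 0.0671 and 0.227. When each array was left out in turn the Aqp5 difference lay between -0.268 and -0.229 with an adjusted p of 0.177 to 0.539.

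The other 8 genes differed little between the times, from -0.03 for Ager and Cav1 to 0.03 for Pdpn. By limma 0 of 10 passed, where 0.221% of all genes did (33 genes), 2 of 10 had an unadjusted p under 0.05, where 8.97% did, and 2 of 10 showed no overlap between the times, where 6.69% did. Both were lower at 25 h, as were 4.95% of all genes with such a p and 4.15% without overlap. Within mepenzolate lungs Aqp5 stood at 10.53 at 25 h and 10.88 at 7 h, and within vehicle lungs at 10.68 at 25 h and 10.83 at 7 h, differences of -0.34 and -0.15. For Gprc5a the same differences were -0.15 in mepenzolate lungs and -0.16 in vehicle lungs. Time since dosing and the hour of the day cannot be told apart here.

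Further genes of the type 1 cell were read from a separate list of 30. The arrays measured whole lung, and the part of type 1 cells in the levels of these genes was not tested. Of the 29 tested, 0 passed limma between 25 h and 7 h in either direction, where 0.221% of all genes did. An unadjusted p under 0.05 was found for 7, all lower at 25 h, where 4.95% of all genes were lower with such a p. The median over the list was -0.0602, against 0.00138 over all genes tested. A lower median at 25 h was not particular to type 1 genes. It was -0.0896 for fibroblast and smooth muscle markers, -0.0584 for vascular endothelial and -0.0499 for lymphatic markers. In the other direction it was 0.0841 for alveolar macrophage and 0.118 for ciliated markers. Timp3, an inhibitor of metalloproteinases, had 11.72 and 11.70 in mepenzolate lungs and 11.81 and 11.79 in vehicle lungs at 25 h, against 12.10 and 12.15 in mepenzolate lungs and 12.16 and 12.03 in vehicle lungs at 7 h. Its difference was -0.36 ± 0.06 with a limma adjusted p of 0.0646, and it passed under 3 other settings: adjusted p = 0.0477 with quantile normalization, 0.0306 with a stricter filter and 0.00456 with an intensity trend. It did not pass under the other settings that kept all arrays, nor with any single array left out (adjusted p = 0.0995 to 0.334).

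Gramd2, a gene used to mark type 1 cells by its enhancer, differed by -0.30 ± 0.06 between 25 h and 7 h (limma adjusted p = 0.128). It passed with an intensity trend (0.0429), and leaving out any single array gave an adjusted p of 0.124 to 0.45. Atp1b1, a subunit of the sodium pump that drives fluid clearance, differed by -0.23 ± 0.06 and the follistatin relative Fstl3 by -0.18 ± 0.05, with adjusted p = 0.22 and 0.274. These 4 genes, named for their large moderated t, lay lower on every array at 25 h than on any array at 7 h. Over the list 5 of 29 did so and 0 lay higher without overlap, against 4.15% of all genes lower without overlap. Cldn18 differed by -0.06 ± 0.05 and Vegfa by 0.02 ± 0.06.

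Between treatments the same 29 genes showed no call either. At 25 h, 10 were higher and 19 lower in mepenzolate lungs (median -0.0144 against -0.023 over all genes tested), where 58.7% of all genes were lower. An unadjusted p under 0.05 was found for 0, where 4.01% of all genes had one. Groups did not overlap for 0 higher and 10 lower, against 14.2% and 22.4% of all genes. At 7 h, 21 were higher and 8 lower (median 0.018 against -0.0133), where 56.4% of all genes were lower. There was no overlap of the groups for 5 higher and 2 lower, against 8.26% and 15.5% of all genes. Of the 29, 1 higher and 1 lower had an unadjusted p under 0.05, where 2.39% of all genes did. The proteoglycan gene Spock2 was at 0.20 ± 0.08 (unadjusted p = 0.0308) and S100a14 at -0.22 ± 0.09 (0.043), both with a limma adjusted p of 1.

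Regulators of alveolar fate and the YAP and TAZ pathway held the single listed gene that passed. Ccn2, which encodes connective tissue growth factor and is a standard YAP target, had 10.90 and 10.57 in mepenzolate lungs and 10.78 and 10.73 in vehicle lungs at 25 h, against 11.36 and 11.50 in mepenzolate lungs and 11.41 and 11.39 in vehicle lungs at 7 h. It fell by 0.67 ± 0.08 on the log2 scale at 25 h relative to 7 h (limma adjusted p = 0.0223). With single arrays left out its difference lay between -0.749 and -0.584, and its adjusted p between 0.0155 and 0.143, above 0.05 for 6 of the 8 arrays left out: each of the 2 vehicle arrays at either time, and the second mepenzolate array at either time.

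Of the 18 genes of that list, 1 passed lower (0.181% of all genes) and 0 passed higher. An unadjusted p under 0.05 was found for 4 lower, where 4.95% of all genes had one, and for 1 higher, where 4.03% did. The DNA-binding partner gene Tead2 was at -0.24 ± 0.06, the kinase gene Lats2 at -0.18 ± 0.06 and the YAP target Amotl2 at -0.15 ± 0.05, with adjusted p = 0.177, 0.381 and 0.438. Another YAP target, Ccn1, was at -0.07 ± 0.06, Yap1 itself at -0.06 ± 0.06, and Nkx2-1 at -0.05 ± 0.06. In the other direction 6 of the 18 were higher at 25 h, where 50.7% of all genes were. Among these, the forkhead factor gene Foxa2 was at 0.17 ± 0.07 (unadjusted p = 0.0416, limma adjusted p = 0.521). Cebpa was at 0.14 ± 0.07 and Gata6 at 0.10 ± 0.07. Wwtr1, which encodes TAZ, was at 0.02 ± 0.06, and Tead1 and Tead3 at 0.01 ± 0.06 each.

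**Figure D5:**
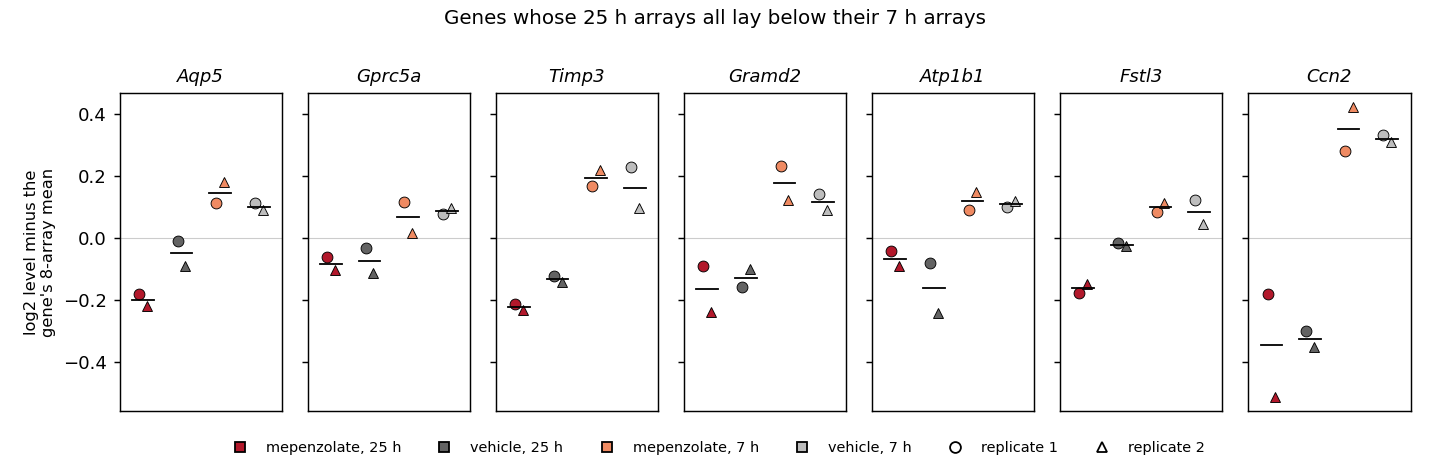
Log2 level minus the gene's 8-array mean (y axis) for Aqp5 and Gprc5a of the 10 type 1 genes, 4 further type 1 genes and Ccn2, in the 4 groups (colours, bars at group means, circles for replicate 1 and triangles for replicate 2). For each gene the 4 arrays at 25 h, on the left, lie below the 4 arrays at 7 h, and the difference is -0.67 for Ccn2 and -0.25 for Aqp5.

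Partners of single members were read in the same fits. The proteins that coat caveolae with caveolin 1 showed 0 calls in the comparisons above. Of 9 genes tested, 1, Cavin3, had an unadjusted p under 0.05 at 7 h (-0.26 ± 0.11, mepenzolate minus vehicle), where 2.39% of all genes did. Over time it was again 1 of 9 (-0.19 ± 0.08, 25 h minus 7 h), where 8.97% of all genes did. These 2 comparisons share the vehicle arrays at 7 h. The Cavin3 time difference was -0.08 in mepenzolate lungs and -0.30 in vehicle lungs. Among 10 tested ligands, sheddases and effectors of RAGE, 0 passed. Between the times 3 of the 10 were higher at 25 h with an unadjusted p under 0.05, where 4.03% of all genes were. They were S100a8 at 0.50 ± 0.12, S100a9 at 0.35 ± 0.12 and S100a4 at 0.22 ± 0.06, with limma adjusted p = 0.178, 0.377 and 0.218. The time differences of S100a8 and S100a9 were 0.04 and 0.08 in mepenzolate lungs and 0.95 and 0.62 in vehicle lungs. S100a4 had 0.32 in mepenzolate and 0.11 in vehicle lungs. For the interaction 1 of the 10 had an unadjusted p under 0.05, where 2.68% of all genes did. S100a8, a subunit of calprotectin that neutrophils carry, stood at 8.71 and 8.74 in mepenzolate lungs and 9.19 and 9.06 in vehicle lungs at 25 h, and at 8.53 and 8.84 in mepenzolate lungs and 8.42 and 7.92 in vehicle lungs at 7 h. Relative to vehicle, S100a8 in mepenzolate lungs was at -0.40 ± 0.17 at 25 h and 0.51 ± 0.17 at 7 h, with limma adjusted p = 0.979 and 1. The same differences of Ager, which encodes a receptor for S100 proteins, were -0.10 and 0.04. Relatives of the 10 genes (14 tested, among them Aqp1, Aqp3, Clic4 and Emp1) had 0 calls, and 1 of the 14, the kinase anchoring gene Akap12, had an unadjusted p under 0.05 between the times, where 8.97% of all genes did (0.21 ± 0.06, limma adjusted p = 0.267).

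Markers of other cells moved beside these results. Mesothelial markers were above their 8-array mean on all 4 mepenzolate arrays (0.25 and 0.11 at 25 h, 0.15 and 0.02 at 7 h) and below it on all 4 vehicle arrays (-0.17 and -0.13 at 25 h, -0.17 and -0.05 at 7 h), as was Rtkn2 with the exception of the second mepenzolate array at 7 h, which lay below. The 14 vascular endothelial markers averaged -0.09 and -0.04 in mepenzolate lungs and 0.00 and 0.07 in vehicle lungs at 25 h, and 0.05 and -0.02 in mepenzolate lungs and 0.03 and 0.00 in vehicle lungs at 7 h. Cav1, which endothelium also expresses, differed by 0.05 ± 0.07 at 25 h (limma adjusted p = 0.98), a difference of 0.0185 without the first vehicle array, and by 0.11 ± 0.07 at 7 h (adjusted p = 1). On the first mepenzolate array at 25 h, where 8 of the 10 type 1 genes were below their own mean, 4 adipocyte markers averaged 0.48. The part of these cells in the type 1 values was not tested.

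Promoter sequence is shown for the 3 genes of the list whose window held CACGTG, the E-box hexamer bound by the clock factors CLOCK and BMAL1 among others, because Aqp5 is the gene that differed most between the times. Windows were the 250 bases before an annotated start in RefSeq's GRCm38.p6 table, which had entries for 8 of the 10 genes in 10 windows. The windows of Ager, Akap5 and Clic5, the second window of Cav1 and the Hopx window shown lay inside the annotated gene. For Ager, Akap5 and Clic5 the bases before the outer start of the gene were thus not searched. CACGTG, which reads the same on both strands, is in capitals.
Aqp5, chr15:99590778-99591027, plus strand: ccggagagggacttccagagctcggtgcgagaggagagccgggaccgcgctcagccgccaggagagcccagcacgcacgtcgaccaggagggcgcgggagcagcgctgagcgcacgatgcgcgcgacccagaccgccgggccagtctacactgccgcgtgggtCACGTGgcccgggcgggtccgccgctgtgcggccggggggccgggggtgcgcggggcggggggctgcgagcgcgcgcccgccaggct
Pdpn, chr4:143299565-143299814, minus strand: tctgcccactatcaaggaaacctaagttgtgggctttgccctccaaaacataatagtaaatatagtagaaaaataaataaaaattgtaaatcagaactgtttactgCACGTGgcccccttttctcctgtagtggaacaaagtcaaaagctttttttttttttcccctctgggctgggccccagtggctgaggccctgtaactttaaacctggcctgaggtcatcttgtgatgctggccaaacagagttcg
Hopx, chr5:77095268-77095517, minus strand: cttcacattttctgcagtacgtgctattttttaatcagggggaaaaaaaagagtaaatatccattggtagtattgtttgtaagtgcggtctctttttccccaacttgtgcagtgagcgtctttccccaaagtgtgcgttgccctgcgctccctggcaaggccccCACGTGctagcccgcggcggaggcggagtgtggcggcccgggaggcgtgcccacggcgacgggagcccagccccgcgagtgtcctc

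The hexamer began 87 bases before the start in Aqp5, 144 in Pdpn and 86 in this window of Hopx, and 6.02% of the 32851 windows in the table held it. The difference 25 h minus 7 h was -0.25 ± 0.05 for Aqp5, 0.03 ± 0.16 for Pdpn and 0.01 ± 0.06 for Hopx. The TEAD motif GGAATG and the GATA motif AGATAA, on either strand, were in 0 of the 10 windows, where 12.6% and 9.99% of all windows held them. The NKX2-1 core CTCAAG was in 1, the other window of Hopx, where 13.3% of all windows held it. Such matches describe letters and not bound sites, and the motifs were searched after the values were known.

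Among the 45 pairs of the 10 genes Pearson's r over the 8 arrays was positive for 28 and negative for 17, with a median of 0.09. The array average of the 10 genes was highest on the first mepenzolate array at 7 h (0.07) and lowest on the first mepenzolate array at 25 h (-0.06). On that lowest array Rtkn2 was 0.06 above its own mean while Akap5 was 0.21 below. The genes most like Ager over the 8 arrays by Pearson's r were B130006D01Rik (0.952), Gm10369 (0.935), Psrc1 (0.929), Mybl2 (0.928) and Zfp513 (0.924), given as a description of 8 arrays that share groups and of a gene with a range of only 0.20. Those most like the average of the 10 genes were Vezt (0.967), Adam9 (0.957), Man1b1 (0.95), Gigyf1 (0.944) and Ogfod1 (0.936). For Aqp5, chosen after its values were seen, they were Rapgef1 (0.99), Cped1 (0.976), Fstl3 (0.96), Timp3 (0.96) and Epha1 (0.96). Of these 5, Fstl3 and Timp3 stood in the separate list of type 1 genes. Both were already described as lower at 25 h than at 7 h, so their r with Aqp5 is no separate result. A difference between the times alone can give a high r. For Aqp5 with Gprc5a, r was 0.84 over the 8 arrays and 0.09 within groups.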

How the data were processed

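The deposited values of the 8 Affymetrix arrays were log2 levels for 34760 probes that the authors had made with RMA, the robust multi-array average, as the submitters' processing notes name it. The software version is not given in the sources used here. The method corrects background and brings the arrays to a common distribution before probes are combined. The number of arrays limits the precision. Sample titles gave groups and replicate numbers. Probes annotated with exactly 1 symbol (21640) were reduced to the brightest of each gene over the 8 arrays, leaving 19937 genes, and those below the 25th percentile of mean level (log2 5.93) were not tested.

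Group means were fitted in limma 3.58.1 (R 4.3.3) with all 8 arrays sharing the spread, which left 4 residual and 4.09 prior degrees of freedom. Benjamini-Hochberg adjustment covered the 14953 genes tested, at a threshold of 0.05. The fit was tested on simulated data. Alternatives were quantile normalization, median centring, no filter, a filter at the 50th percentile, weighting the arrays, robust estimation with an intensity trend, averaging a gene's probes (each of the 10 genes had 1), a replicate block, only the groups compared, and each array left out. From each further list up to 4 genes with the largest moderated t per comparison were named, plus any that passed. Cldn18, Vegfa, Alb, Prox1, Lyve1, Flt4, Mmrn1, Reln, Itgb6, Krt19, Ccn1, Yap1, Nkx2-1, Foxa2, Cebpa, Gata6, Wwtr1, Tead1, Tead3, Aqp1, Aqp3, Clic4 and Emp1 were added after their values were seen. The 5 genes most like Ager and most like the average of the 10 were also named. Those most like Pdpn and Aqp5 were added after the values were seen. Members, lists and rules were chosen with earlier results of these data known.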

Additional observations from a re-analysis of the deposited data

How the results depend on the processing

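In simulated data for the 25 h comparison (14953 genes), limma recovered 62% of 50 genes altered by 0.5 on the log2 scale. It recovered 98 to 100% of those altered by 1 or more. All sizes were altered in the same simulated data, which makes the adjusted threshold easier to pass. In the measured comparison 0 genes passed, so the 62% cannot be taken as the share found for a lone change of 0.5. Smaller changes, the size of most differences of the 10 genes, were not simulated. Of 460 values of single genes under alternatives that kept all arrays, 450 kept direction and side of the threshold, and with an array left out 389 of 440 did. Many of these values could not turn direction. The filters, the intensity trend, the replicate block and the fit to only the groups compared leave a gene's difference unchanged. Leaving out an array at 7 h leaves a difference at 25 h unchanged, and the reverse holds too. These counts therefore do not measure stability. The count of genes passing between 25 h and 7 h, 33 as reported, was 72 with a stricter filter and 123 with an intensity trend and robust estimation, under which 1 of the 10 type 1 genes passed (Aqp5). Median centring gave a median interaction of the 10 genes of -0.0246 and, per gene, 0.0182 for Gprc5a at 25 h and -0.0133 for Hopx and -0.00886 for Rtkn2 between the times. Quantile normalization gave 0.00431 for Emp2 at 7 h and -0.0218 for the Gprc5a interaction. The cause was not tested.

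The labels do not tie replicate numbers across groups. The correlations of deviations between same-numbered arrays were over 0.1 for 3 of the 6 pairs of groups (mepenzolate 25 h with mepenzolate 7 h 0.396, mepenzolate 7 h with vehicle 7 h 0.33, mepenzolate 25 h with vehicle 7 h 0.194) and between -0.021 and 0.027 for the others, so a pairing was not taken as given. With the replicate block 73 genes passed between the times and 1 at 25 h, none of them among the 10.

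Leaving out single arrays, 11 to 34 genes passed between the times (12 without the second mepenzolate array at 25 h or the second vehicle array at 25 h, 21 without the second mepenzolate array at 7 h, 14 and 11 without the first and second vehicle array at 7 h), 0 to 1 at 25 h, and 0 to 2 at 7 h, averaged and for the interaction. The median interaction of the 10 genes ran from -0.102 to -0.0371. Directions turned for these genes. At 25 h Akap5 ran from -0.222 to 0.144, Gprc5a from -0.0458 to 0.0277 and Hopx from -0.0388 to 0.164. At 7 h Akap5 ran from -0.0292 to 0.0632, Emp2 from -0.061 to 0.0364, Gprc5a from -0.0648 to 0.0268 and Pdpn from -0.419 to 0.252. Averaged, Akap5 ran from -0.103 to 0.0805, Clic5 from -0.005 to 0.0613, Gprc5a from -0.0369 to 0.00889, Hopx from -0.0401 to 0.0612 and Pdpn from -0.278 to 0.0577. Between the times Akap5 ran from -0.112 to 0.0713, Clic5 from -0.0499 to 0.0164, Emp2 from -0.0315 to 0.0172, Hopx from -0.0429 to 0.0584, Pdpn from -0.142 to 0.194 and Rtkn2 from -0.0386 to 0.0629. For the interaction Akap5 ran from -0.239 to 0.127, Gprc5a from -0.0359 to 0.0558 and Pdpn from -0.39 to 0.282.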
